A study of Mus musculus with 14 samples.

Results

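The heat shock chaperones described here are 10 genes, *Hspa1a*, *Hspa1b*, *Hspa8*, *Dnajb1*, *Hsph1*, *Bag3*, *Hsp90aa1*, *Hspb1*, *Hspd1* and *Hspe1*, taken by gene symbol from the 17656 genes measured in mouse liver. All 10 were found, 1 entry each. The RNA of 14 livers was sequenced with single-end reads of 50 bases, 1 library per mouse. Mice were 8 weeks old and received saline or 8 mg/kg of concanavalin A (ConA), a plant lectin that activates T cells and injures the liver, into the tail vein, and livers were taken at 8 h. The groups were WT saline (3 mice), *Ythdf1*-/- saline (3 mice), WT ConA (4 mice) and *Ythdf1*-/- ConA (4 mice). KO stands below for the libraries labelled *Ythdf1* knockout. The knockout mice were made with CRISPR/Cas9 and carry the altered gene in all cells, and the RNA is that of whole liver. *Ythdf1* encodes a reader of m6A, a methyl mark on adenosines of mRNA.

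Heat shock chaperones bind unfolded or partly folded proteins and keep them from clumping. HSP70 proteins take up short greasy stretches of a client and release them under control of ATP, J-domain proteins such as the product of *Dnajb1* hand clients over and speed up ATP splitting, and HSP110 and BAG proteins swap the nucleotide so that the client is let go. HSP90 finishes the folding of kinases and hormone receptors, small heat shock proteins such as the product of *Hspb1* hold clients without ATP, and *Hspd1* and *Hspe1* encode the barrel and the lid of the folding chamber of mitochondria. Under proteotoxic stress, the factor HSF1 binds heat shock elements, inverted repeats of the letters GAA, and switches on many of these genes within minutes to hours. In liver, fever, oxidative stress and inflammation are known triggers of this response.

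Expression was given in TPM, a transcript abundance scaled by transcript length so that each library sums to 1000000. The number of reads behind a value is unknown, so the spread between mice is the measure of error. *Ythdf1* itself stood at 12.03, 13.9 and 13.3 TPM in WT saline, 20.8, 18.4 and 18.6 TPM in KO saline, 25.6, 21.4, 18.7 and 20.3 TPM in WT ConA and 25.9, 26.2, 15.5 and 21.3 TPM in KO ConA livers. The gene-level value was not lower in the libraries labelled KO, and since it does not show which part of the transcript was altered, it does not check the genotype labels. WT saline replicates 2 and 3 were closer to each other than any other pair of replicates, with a median absolute log2 difference of 0.0793 over 11327 genes against 0.128 to 0.397 for the other pairs. They were kept as 2 mice, and results that change when they count as 1 are given. WT ConA replicate 3 and KO ConA replicate 3 stood apart from their groups, each with median differences of 0.259 or more from the others. Hepatocyte markers (7 genes, among them *Alb*) summed to 108050 to 134941 TPM in saline livers and 52175 to 80523 TPM in ConA livers, and 6 of 7 were lower after ConA in both genotypes. Neutrophil markers (8 genes, among them *S100a8*) summed to 5.53 to 11.4 TPM in saline and 319 to 954 TPM in ConA livers, with 7 of 8 higher in both genotypes, and Kupffer cell markers were lower in 6 of 8 in WT and in 4 of 8, with 1 higher, in KO livers. T cell markers summed to at most 6.08 TPM in any library, and 1 of the 7 measured was at 0 in some WT ConA library. Erythroid markers (5 genes) summed to 1623 to 3858 TPM in WT saline livers and, after ConA, to 1360 to 2738 TPM. In KO livers their sum was 2769 to 17120 TPM in saline and 816 to 3724 TPM after ConA, with 1 of 5 lower after ConA in WT and 5 of 5 in KO livers. Stellate cell markers had 3 of 6 lower after ConA in KO livers. In WT livers only 1 of the 6 could be tested after ConA, and it was not called, so the genotypes cannot be compared in this. Cholangiocyte markers had 3 of 4 higher in WT and 1 of 4 in KO livers. Sinusoidal endothelial markers (6 genes) had 2 higher and 2 lower after ConA in WT and 2 higher and 3 lower in KO livers. Between KO and WT saline livers, 3 of 5 endothelial, 2 of 6 stellate and 1 of 3 cholangiocyte markers tested were higher. Of the hepatocyte markers 1 of 7 was lower. Of all genes tested in saline livers, 6.30% were higher and 12.9% lower in KO. With WT saline replicates 2 and 3 counted as 1 mouse, 49 of 10675 genes were called instead of 2009, so these marker calls are less certain. Between the genotypes under ConA no marker tested was called. That comparison tested 0 of 7 T cell, 0 of 4 B cell, 2 of 6 stellate, 5 of 6 endothelial and 5 of 8 Kupffer cell markers measured. It thus says nothing on T or B cells. The part of these shifts in the chaperone values was not tested. In whole liver, fewer cells of a type and less RNA per cell cannot be told apart.

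On GRCm38.p6, *Hspa1a* (chr17:34969359-34972156) and *Hspa1b* (chr17:34956429-34959238) lie side by side on chromosome 17, and *Hspd1* (chr1:55077833-55088243) overlaps *Hspe1* (chr1:55088148-55091317) at its start. *Hspa8* lies on chromosome 9 (chr9:40801276-40805202), *Dnajb1* on chromosome 8 (chr8:83608175-83612653), *Bag3* on chromosome 7 (chr7:128523583-128546981) and *Hsp90aa1* on chromosome 12 (chr12:110691036-110696395). *Hsph1* (chr5:149616843-149636498) and *Hspb1* (chr5:135887919-135889563) are both on chromosome 5, and all spans are those of RefSeq genes. The promoters of these genes were searched for heat shock elements. RefSeq promoter windows of GRCm38.p6, from 250 bases before to 50 bases after each start site, were at hand for 8 of the 10 genes (11 windows). They were searched on both strands for GAANNTTC and TTCNNGAA, the pairs of inverted GAA units, each of which reads the same on both strands, and for 3 units in a row, GAANNTTCNNGAA and TTCNNGAANNTTC, which hold both pairs. A pair occurred in 15.1% of all 32851 windows and 3 units in 0.603%. By gene, 7 of the 8 members had a pair in some window, against 17.0% of all 27025 genes, and 3 (*Hsph1*, *Hspd1* and *Hspe1*) had 3 units. *Dnajb1* had no match in either of its windows, and *Hspa8* and *Hsp90aa1* had no window. The sequences below hold the matches that lie before the start site named with each, with the matched letters in capitals. The first pair shows that *Hspa1a* and *Hspa1b* carry the same element, whose first base lies at -104 from the start:
Hspa1a, chr17:34972217-34972276, minus strand, bases -120 to -61 from the start: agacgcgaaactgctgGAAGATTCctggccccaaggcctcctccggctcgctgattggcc
Hspa1b, chr17:34959299-34959358, minus strand, bases -120 to -61 from the start: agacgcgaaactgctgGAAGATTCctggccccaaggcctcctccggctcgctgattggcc
Over the 250 bases upstream, the *Hspa1a* and *Hspa1b* windows differed at 3 positions and were 98.8% identical. The next pair is 1 stretch of DNA read from both sides, since *Hspd1* and *Hspe1* lie head to head on chromosome 1 and are known to share a bidirectional promoter:
Hspe1, chr1:55088056-55088080, plus strand, bases -92 to -68 from the start: ccgTTCTAGAACCTTCCGGAAggcc
Hspd1, chr1:55088056-55088080, minus strand, bases -148 to -124 from its start at 55087932: ggccTTCCGGAAGGTTCTAGAAcgg
This run held both 3-unit motifs, overlapping each other. All 25 bases lie in an exon of *Hspd1* in GENCODE vM21, and the other RefSeq start of *Hspd1*, at 55088243, lies on the far side of them and had no match in its own window. The last stretches show the small heat shock protein gene with 2 separate elements and the HSP110 gene with 1:
Hspb1, chr5:135887794-135887834, plus strand, bases -125 to -85 from the start: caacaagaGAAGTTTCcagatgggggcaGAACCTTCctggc
Hsph1, chr5:149636352-149636381, minus strand, bases -45 to -16 from the start at 149636336: tgggtagaatctTTCTCGAAggctcgagaa
The *Hsph1* stretch likewise lies within the gene's span, which reaches 149636498, and 25 of its 30 bases are in an exon of *Hsph1* in GENCODE vM21. *Hsph1* also held a 3-unit match that begins at base 37 after this start, and the one match of *Bag3* began at base 43 after its start. A match is a description of letters in a window, not a measured binding site.

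In saline livers the 10 genes spanned a wide range of levels. *Hspa8*, the constitutive HSP70, was the most abundant at 974 to 1335 TPM over the 6 saline livers, and *Hspa1a*, a stress-inducible HSP70, the least at 0.05 to 0.31 TPM. Between them, *Hspe1* (309 to 363 TPM) lay just above *Hspd1* (159 to 304 TPM), *Hspb1* (47.0 to 105 TPM) overlapped *Hsp90aa1* (49.2 to 76.8 TPM), and *Hsph1* (8.89 to 17.1 TPM) overlapped both *Dnajb1* (12.4 to 14.5 TPM) and *Bag3* (8.03 to 11.3 TPM). *Hspa1b*, the twin of *Hspa1a*, stood at 3.09 to 4.06 TPM, above *Hspa1a* in every library. *Hspa8* alone made up 48.2% to 65.3% of the summed TPM of the 10 genes in a library, and this sum was 1598 to 2156 TPM in saline and 1303 to 2627 TPM in ConA livers.

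**Figure D1:**
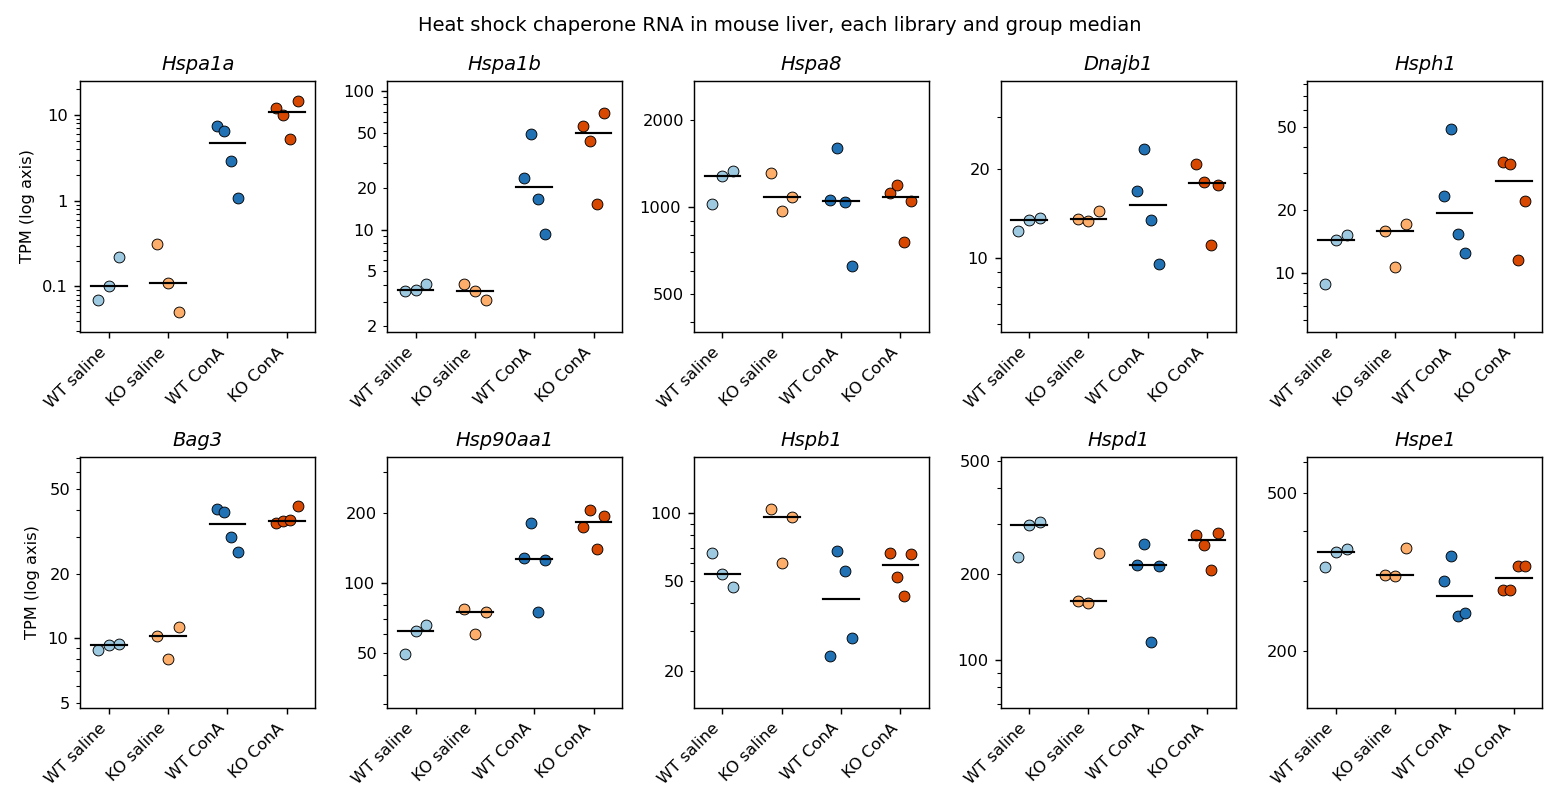
TPM of each heat shock chaperone (log axis, 1 panel per gene with its own range) in the 14 livers by group; points are mice, lines are group medians (3 saline or 4 ConA mice per genotype). In the panels of *Hspa1a*, *Hspa1b*, *Bag3* and *Hsp90aa1*, every ConA liver lies above every saline liver of its genotype.

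How firmly a short read can be given to one of these genes differs. Of all 50-base stretches of the longest coding transcript in GENCODE vM21, 100% were found in no other gene for *Hsph1* and *Bag3* and 99.6% for *Dnajb1*. The share was 33.7% for *Hspa1a* and 37.7% for *Hspa1b*, each of which shared most with the other (58.8% and 62.3% of its stretches). It was 25.2% for *Hspa8*, 41.5% for *Hsp90aa1*, 48.4% for *Hspb1* and 55.2% each for *Hspd1* and *Hspe1*, whose stretches recur in other gene models, such as *Hsp25-ps1* for *Hspb1* and *Hspd1-ps3* for *Hspd1*. Reads of these 7 genes may have been split between copies, so their values are less certain than those of *Hsph1*, *Bag3* and *Dnajb1*.

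The first question was which chaperones changed 8 h after ConA in WT livers. *Hspa1a*, *Hspa1b*, *Bag3* and *Hsp90aa1* rose, and the other 6 genes did not pass the test. Differences were taken on log2(TPM + 1), which understates changes of genes near 0, and tested with limma. Genes entered the test if the number of libraries with a TPM of at least 1 reached the size of the smaller group. A call means an adjusted p under 0.05 after Benjamini-Hochberg correction over all genes tested. With this rule, 4 of 10 chaperones were called, all higher, against 53.0% of the 10768 genes tested (22.0% higher and 31.0% lower), so the share called was not above that of all genes. The same 4 had every ConA liver above every saline liver, which held for 23.3% of all genes tested. *Hspa1a* passed the filter only through its ConA livers, since all its saline values were under 1 TPM. Its place among the 4 was thus partly set by the filter. With the filter at a TPM of 5 it was not tested, and 3 of 9 chaperones were called. The median difference of the 10 was 0.46 on the log2 scale, and that of all genes tested was -0.07.

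Among the HSP70 genes, *Hspa1a* stood at 0.07, 0.10 and 0.22 TPM in WT saline livers and at 7.42, 6.57, 2.89 and 1.08 TPM in WT ConA livers. *Hspa1b* stood at 3.59, 3.68 and 4.05 TPM in saline and at 23.7, 49.3, 16.6 and 9.24 TPM in ConA livers. Both were low at rest and higher in each ConA liver, with replicate 4 the lowest of the group. *Hspa1a* rose by 2.08 on the log2 scale (SE 0.43, adjusted p = 0.0028) and *Hspa1b* by 2.19 (SE 0.44, adjusted p = 0.0024), and the ratio of mean TPM was 34.5 for *Hspa1a* and 6.55 for *Hspa1b*. Because these genes share most 50-base stretches, their values were also summed: the sum rose by 2.38 (SE 0.45, adjusted p = 0.0017). The share of the sum given to *Hspa1a* was 1.91% to 5.15% in WT saline and 10.5% to 23.8% in WT ConA livers.

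*Hspa8* differed from its inducible relatives. It stood at 1026, 1286 and 1335 TPM in WT saline and at 1057, 1609, 1042 and 629 TPM in WT ConA livers, and the groups overlapped. The difference was -0.23 (95% interval -0.85 to 0.38, adjusted p = 0.50).

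Of the partners of HSP70, *Bag3*, which links HSP70 to small heat shock proteins and to autophagy, stood at 8.83, 9.26 and 9.38 TPM in WT saline and at 40.6, 39.0, 29.8 and 25.4 TPM in WT ConA livers. It rose by 1.75 (SE 0.18, adjusted p = 4.4e-05), a ratio of means of 3.68, with the groups well apart. *Dnajb1*, the J-domain partner of the inducible HSP70, stood at 12.4, 13.5 and 13.7 TPM in saline and at 16.9, 23.4, 13.5 and 9.58 TPM in ConA livers. Its ConA values lay on both sides of the saline values, and the difference was 0.18 (95% interval -0.39 to 0.75, adjusted p = 0.57). *Hsph1*, an HSP110, stood at 8.89, 14.4 and 15.3 TPM in saline and at 23.3, 48.8, 15.4 and 12.5 TPM in ConA livers. The difference of 0.75 (95% interval -0.17 to 1.66, adjusted p = 0.15) did not pass, and ConA replicate 2 was far above the rest.

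*Hsp90aa1*, the inducible cytosolic HSP90, stood at 49.2, 62.1 and 65.8 TPM in WT saline and at 128, 181, 75.0 and 126 TPM in WT ConA livers. It rose by 1.04 (SE 0.26, adjusted p = 0.0081), and replicate 3 was the lowest ConA liver. *Hspb1* stood at 66.9, 53.6 and 47.0 TPM in saline and at 23.3, 67.9, 55.7 and 27.9 TPM in ConA livers. ConA livers were split, with replicates 1 and 4 below all saline livers, replicate 3 among them and replicate 2 (67.9 TPM) just above the highest (66.9 TPM), and the difference was -0.47 (95% interval -1.25 to 0.32, adjusted p = 0.29).

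The mitochondrial pair was not higher after ConA in WT livers. *Hspd1* stood at 229.99, 298 and 304 TPM in saline and at 215, 255, 115 and 214 TPM in ConA livers, a difference of -0.52 (95% interval -1.09 to 0.05, adjusted p = 0.12). *Hspe1* stood at 325, 355 and 362 TPM in saline and at 301, 347, 244 and 249 TPM in ConA livers, a difference of -0.30 (95% interval -0.63 to 0.04, adjusted p = 0.12). For both genes the groups overlapped through ConA replicate 2. Without that library *Hspe1* was called lower, at -0.39 (adjusted p = 0.039).

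In KO livers the same comparison called 6 of 10 chaperones, 5 higher and 1 lower, against 64.6% of the 10988 genes tested (33.9% higher and 30.7% lower), again a share no higher than that of all genes. *Hspa1a*, *Hspa1b*, *Bag3* and *Hsp90aa1* rose again, *Hspd1* rose and *Hspb1* fell. The first 4 had every ConA liver above every saline liver, as 32.8% of all genes tested did, while *Hspd1* and *Hspb1* overlapped. As in WT livers, *Hspa1a* passed the filter only through its ConA livers, so its place here was partly set by the filter. The median difference of the 10 was 0.57, and that of all genes tested 0.07.

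*Hspa1a* stood at 0.31, 0.11 and 0.05 TPM in KO saline and at 11.99, 9.86, 5.29 and 14.6 TPM in KO ConA livers. *Hspa1b* stood at 4.06, 3.59 and 3.09 TPM in KO saline and at 56.4, 43.6, 15.3 and 69.5 TPM in KO ConA livers. Replicate 3 was the lowest KO ConA liver for both, still above all KO saline livers. The rise was 3.24 (SE 0.27, adjusted p = 2.4e-06) for *Hspa1a*, 3.18 (SE 0.40, adjusted p = 4.5e-05) for *Hspa1b* and 3.45 (SE 0.38, adjusted p = 1.6e-05) for their sum, with ratios of mean TPM of 66.6 and 12.9 for the 2 genes. *Hspa8* stood at 1311, 974 and 1089 TPM in KO saline and at 1122, 1193, 757 and 1048 TPM in KO ConA livers. Its groups overlapped and differed by -0.14 (95% interval -0.52 to 0.24, adjusted p = 0.50).

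*Bag3* stood at 10.3, 8.03 and 11.3 TPM in KO saline and at 34.8, 35.3, 35.9 and 41.8 TPM in KO ConA livers. The ConA values were close together and the rise was 1.81 (SE 0.14, adjusted p = 1.6e-06), a ratio of means of 3.74. *Hsp90aa1* stood at 76.8, 60.2 and 75.2 TPM in KO saline and at 174, 206, 139.9 and 194 TPM in KO ConA livers, and rose by 1.32 (SE 0.15, adjusted p = 2.3e-05). *Dnajb1* stood at 13.6, 13.4 and 14.5 TPM in KO saline and at 20.9, 18.2, 11.1 and 17.7 TPM in KO ConA livers. *Hsph1* stood at 15.9, 10.7 and 17.1 TPM in KO saline and at 34.0, 33.4, 11.5 and 22.1 TPM in KO ConA livers. For both genes replicate 3 was the lowest ConA liver and the others lay above all saline livers. Neither passed, with 0.25 (adjusted p = 0.28) for *Dnajb1* and 0.67 (adjusted p = 0.092) for *Hsph1*. Without KO ConA replicate 3, *Dnajb1* was called higher at 0.43 (adjusted p = 0.0067) and *Hsph1* at 0.99 (adjusted p = 0.0028).

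*Hspb1* stood at 105, 60.2 and 96.8 TPM in KO saline and at 66.6, 52.3, 43.2 and 65.8 TPM in KO ConA livers. It fell by 0.59 on the log2 scale (SE 0.21, adjusted p = 0.029), and KO saline replicate 2 lay within the ConA values. The call was lost without KO saline replicate 1 or 3 or KO ConA replicate 2 or 3, with differences of -0.44 to -0.56 and adjusted p of 0.057 to 0.13. *Hspd1* stood at 161, 159 and 236 TPM in KO saline and at 274, 254, 207 and 279 TPM in KO ConA livers. It rose by 0.47 (SE 0.16, adjusted p = 0.028), with KO saline replicate 3 above the lowest ConA liver. This call was lost without KO saline replicate 1 or 2 or KO ConA replicate 1, 2 or 4, with differences of 0.37 to 0.46 and adjusted p of 0.051 to 0.12. *Hspe1*, its partner, stood at 311, 309 and 363 TPM in KO saline and at 285, 284, 328 and 327 TPM in KO ConA livers. The groups overlapped and differed by -0.10 (95% interval -0.35 to 0.16, adjusted p = 0.48).

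**Figure D2:**
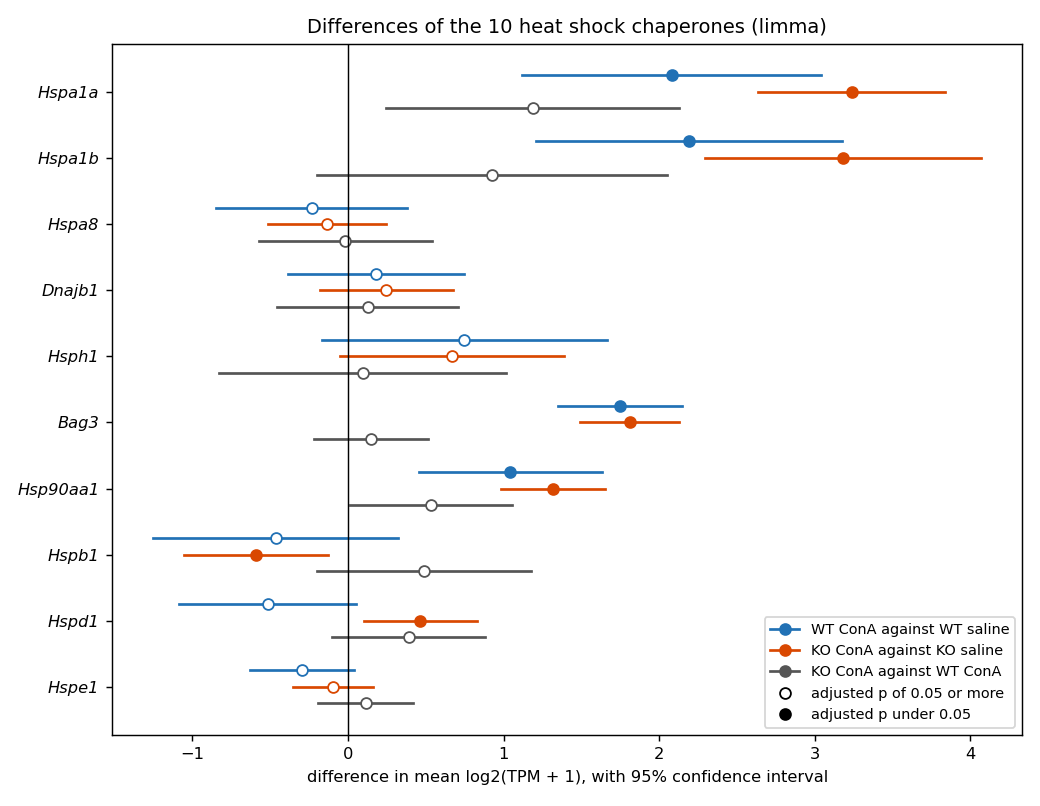
Difference in mean log2(TPM + 1) with its 95% confidence interval (horizontal axis) for each chaperone in 3 comparisons, filled where the adjusted p is under 0.05. *Hspa1a* and *Hspa1b* show the largest rises after ConA, *Bag3* is alike in WT (1.75) and KO (1.81) livers, and no point of the comparison of the genotypes under ConA is filled.

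The study's main question was whether loss of YTHDF1 changes the response to ConA. Between KO ConA and WT ConA livers, 0 of 10 chaperones were called by limma, against 0.428% of the 10519 genes tested (45 genes, 36 higher and 9 lower, or 12 higher and 13 lower after each library was rescaled by its median ratio). At an unadjusted p under 0.05 there were 2 of the 10, against 16.7% of all genes tested. These were *Hspa1a*, higher in KO by 1.19 (95% interval 0.24 to 2.13, adjusted p = 0.20), and *Hsp90aa1*, higher by 0.53 (95% interval 0.01 to 1.05, adjusted p = 0.29). For *Hspa1a*, KO ConA replicate 3 (5.29 TPM) lay within the WT ConA values of 1.08 to 7.42 TPM, and for *Hsp90aa1* WT ConA replicate 2 (181 TPM) lay within the KO ConA values. *Hspa1b* differed by 0.93 (95% interval -0.20 to 2.05, adjusted p = 0.40), and the sum of the *Hspa1* genes by 1.01 (SE 0.50, adjusted p = 0.35). The means were 4.49 ± 3.01 TPM in WT and 10.4 ± 3.94 TPM in KO for *Hspa1a*, and 24.7 ± 17.4 TPM in WT and 46.2 ± 23.2 TPM in KO for *Hspa1b* (SD, n = 4 each). The interval for *Hspa1b* leaves room for no difference and for a severalfold one. These differences rested partly on single WT livers: without WT ConA replicate 4, *Hspa1a* had 0.79 and *Hspa1b* 0.56, and without WT ConA replicate 3, *Hsp90aa1* had 0.30. Over all single libraries left out, the ranges were 0.79 to 1.46 for *Hspa1a*, 0.56 to 1.38 for *Hspa1b* and 0.30 to 0.72 for *Hsp90aa1*, and none was called.

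For the remaining chaperones the differences between genotypes under ConA were at most 0.49. *Bag3* differed by 0.15 (95% interval -0.22 to 0.52), *Dnajb1* by 0.13 (-0.45 to 0.71), *Hsph1* by 0.09 (-0.83 to 1.02) and *Hspa8* by -0.02 (-0.57 to 0.54). *Hspb1* differed by 0.49 (-0.20 to 1.17), *Hspd1* by 0.39 (-0.10 to 0.88) and *Hspe1* by 0.11 (-0.19 to 0.42). The groups of all 10 genes overlapped, while 10.5% of all genes tested did not. Leaving out single libraries gave *Hspb1* a lowest value of 0.24, with WT ConA replicate 1 dropped, and a highest of 0.74, with replicate 2 of that group dropped, and as little as 0.15 for *Hspd1* and 0.044 for *Hspe1* without WT ConA replicate 3 and 0.026 for *Bag3* without WT ConA replicate 4. The signs for *Hspa8*, *Dnajb1* and *Hsph1* turned when single libraries were left out, WT ConA replicate 2 or KO ConA replicate 3 for *Hspa8*, WT ConA replicate 4 for *Dnajb1*, and WT ConA replicate 3 or 4 or KO ConA replicate 1 or 2 for *Hsph1*.

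Without ConA, KO and WT livers were compared for the 9 chaperones that passed the filter, and *Hspa1a* was not tested. None of the 9 was called by limma, against 19.2% of the 10459 genes tested (6.30% higher and 12.9% lower, and 743 higher against 770 lower genes after each library was rescaled by its median ratio). With WT saline replicates 2 and 3 counted as 1 mouse, 49 of 10675 genes and again 0 chaperones were called. At an unadjusted p under 0.05 there were 2 of 9, against 38.8% of all genes tested, a lower share than that of all genes. *Hspd1* had a difference of -0.59 (SE 0.18, adjusted p = 0.058), lower in KO, and *Hspb1* one of 0.61 (SE 0.22, adjusted p = 0.087). *Hspd1* was called without WT saline replicate 1 (-0.72, adjusted p = 0.038) or without KO saline replicate 3 (-0.78, adjusted p = 0.016), and *Hspb1* without KO saline replicate 2 (0.86, adjusted p = 0.041). The other 7 differed by -0.11 to 0.26.

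Whether the ConA difference itself depended on genotype was tested over all 14 libraries. None of the 10 interaction terms was called, against 4.78% of the 11327 genes tested (541 genes, or 28 with WT saline replicates 2 and 3 counted as 1 mouse). Of the 10, 1 gene, *Hspd1*, had an unadjusted p under 0.05, against 25.3% of all genes tested, so the chaperones did not stand out here. For *Hspd1* the ConA difference was -0.52 in WT and 0.47 in KO, and their difference was 0.98 (95% interval 0.29 to 1.68, adjusted p = 0.087). The median interaction over all genes was 0.14 and fell to 0.03 after each library was rescaled by its median ratio, and *Hspd1* then had 0.84. With single libraries left out it ranged from 0.74 to 1.17 and was never called (adjusted p of 0.055 to 0.20). *Hspa1a* had 1.16 (-0.03 to 2.35, adjusted p = 0.21) and *Hspa1b* 0.99 (-0.44 to 2.42, adjusted p = 0.36). *Bag3* had 0.06 (-0.43 to 0.55, adjusted p = 0.88), and all other terms lay between -0.12 and 0.27. The level of *Hspd1* relative to *Hspe1*, its partner in the folding chamber of mitochondria, was taken as a ratio of TPM. It was 0.709, 0.840 and 0.838 in WT saline and 0.518, 0.514 and 0.651 in KO saline livers. After ConA it was 0.714, 0.737, 0.472 and 0.860 in WT and 0.961, 0.893, 0.630 and 0.855 in KO livers. The ratio was lowest in WT ConA replicate 3, one of the libraries that stood apart.

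Replicates mostly differed more in the chaperones than in the median gene. The median absolute log2 difference over the 10 genes exceeded that over all 11327 genes in 6 of 6 pairs of WT ConA livers (0.472 to 1.23 against 0.180 to 0.388), in 5 of 6 pairs of KO ConA livers (0.149 to 0.606 against 0.128 to 0.397) and in 2 of 3 pairs of each saline group. WT ConA replicate 2 was the highest of its group for 8 of 10 chaperones and for 33.5% of all genes, and replicate 4 the lowest for 6 of 10 and for 19.4% of all genes. KO ConA replicate 3, which stood apart over all genes, was the lowest of its group for 8 of 10 chaperones and for 60.8% of all genes. In the saline groups WT replicate 1 was the lowest for 9 of 10 (42.3% of all genes) and KO replicate 2 for 8 of 10 (35.8%). The mean deviation of the 10 genes from their group means was 0.65 in WT ConA replicate 2, -0.52 in WT ConA replicate 4 and -0.50 in KO ConA replicate 3 on the log2 scale, and between -0.25 and 0.21 in the other 11 libraries.

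**Figure D3:**
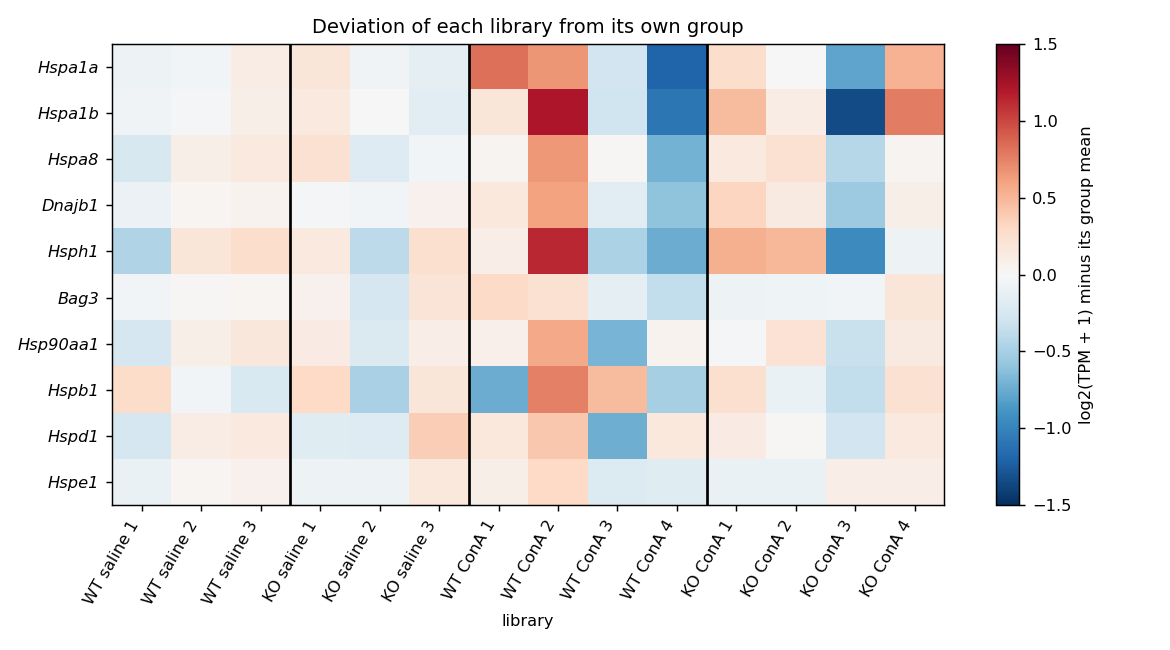
Deviation of log2(TPM + 1) of each chaperone from its group mean (colour, red above and blue below) in the 14 livers, with black lines between groups. WT ConA replicate 2 is above and WT ConA replicate 4 and KO ConA replicate 3 are below their groups for most rows, while *Bag3* and *Hspe1* deviate little.

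These deviations describe which chaperones went together from mouse to mouse. The correlation of each gene with the mean of the other 9, over the 14 libraries, was 0.95 for *Dnajb1*, 0.91 for *Hsph1*, 0.90 for *Hspa1b*, 0.89 for *Hspa8* and 0.81 for *Hspa1a*. It was lower for *Bag3* (0.70), *Hsp90aa1* (0.67), *Hspe1* (0.57), *Hspd1* (0.51) and *Hspb1* (0.43). *Dnajb1* and *Hspa8*, which did not differ between ConA and saline groups by the test, thus followed the inducible HSP70 genes among mice of one group, with 0.94 between *Hspa1b* and *Dnajb1* and 0.85 between *Hspa1b* and *Hspa8*. *Hsp90aa1* went most with *Hspd1* (0.88), and *Hspb1* and *Hspd1* did not go together (-0.04). The genes outside the 10 most like their mean were *Slc25a15* (0.95), *Acnat1* (0.92), *Dnaja1*, a J-domain partner of HSP70 (0.90), *Parp3* (0.89) and *Arid5b* (0.88), among 5152 genes with TPM of 5 or more in every library, whose median was 0.33 and whose 95th percentile was 0.70. All points share a library between the genes, including its depth and quality, and the 3 ConA libraries with the largest deviations weigh most, so these values are descriptions without a test.

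The rest of the chaperone system was read from 9 lists of 96 genes, of which 94 were measured and 88 tested. In WT livers ConA called 21 of the 88 higher and 25 lower (52.3%, beside 53.0% of all genes), and in KO livers 32 higher and 23 lower (62.5%, beside 64.6%). Between the genotypes under ConA 0 of 88 were called by limma, in saline 11 were higher and 7 lower in KO (20.5%, beside 19.2%), and the interaction called 2 higher and 2 lower (4.55%, beside 4.78%). The share called was thus near that of all genes in each comparison with calls. With WT saline replicates 2 and 3 counted as 1 mouse, 0 of 88 were called in saline and 1 for the interaction. The interaction genes, named after their values were seen, were *Gabarapl1* (1.04), *Afg3l2* (0.83), *Pfdn6* (-1.25) and *Clpp* (-0.83), of which *Pfdn6* was still called with the averaged library (-1.22, adjusted p = 0.047). In the values that follow, WT and KO stand for the log2 differences between ConA and saline livers. Of the genes named below, *Daxx*, *Dnajc5*, *Unc45a*, *Aarsd1*, *Cct4*, *Pfdn4*, *Serpinh1* and *Gabarapl1* were called between KO and WT saline livers. Their WT and KO differences thus start from unlike saline levels.

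Among heat shock factors and regulators (6 tested), 2 were higher and 3 lower in WT, and 2 higher and 4 lower in KO livers. *Ier5*, a coactivator of HSF1, rose from 1.79 to 2.08 TPM in WT saline livers to 9.96 to 17.1 TPM in WT ConA livers (WT 2.28, KO 2.21). *Daxx* rose as well (WT 1.07, KO 1.86), and the factor genes *Hsf2* (WT -1.11, KO -0.80) and *Hsf4* (WT -1.001, KO -1.41) fell. *Hsf1* itself had -0.13 in WT livers (adjusted p = 0.45) and fell by 0.63 in KO livers (adjusted p = 0.0025). Other HSP70 and HSP110 genes (6 tested) had 3 higher in WT and 4 in KO livers and none lower. *Hspa13*, an HSP70 of the endoplasmic reticulum, rose from 4.43 to 5.52 TPM to 18.04 to 35.7 TPM in WT livers (WT 2.25, KO 2.34), *Hspa2* rose to a like degree (WT 2.11, KO 2.08), and *Hspa4*, a relative of *Hsph1*, had -0.01 in WT livers (adjusted p = 0.95) and rose by 0.51 in KO livers (adjusted p = 0.010).

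Other J-domain proteins (12 tested) had 3 higher and 1 lower in each genotype. *Dnajc5*, the cysteine string protein of secretory vesicles, rose (WT 0.83, KO 1.63), *Dnajb5* rose (WT 0.74, KO 0.45) and *Dnajb12* fell (WT -0.54, KO -0.49), while *Dnaja1* had -0.49 in WT and -0.28 in KO livers (adjusted p = 0.21 and 0.32). The HSP90 machinery (18 tested) had 3 higher and 3 lower in WT and 6 higher and 3 lower in KO livers. Its hormone receptor cochaperones went opposite ways: *Fkbp4* fell from 114 to 147 TPM to 19.1 to 49.4 TPM in WT livers (WT -1.90, KO -2.57), and *Fkbp5* rose (WT 1.16, KO 1.23). *Unc45a*, a myosin chaperone, rose (WT 0.99, KO 0.39) and *Aarsd1* fell (WT -0.75, KO -1.28). In saline livers both were higher in KO, *Unc45a* by 0.56 (adjusted p = 0.016) and *Aarsd1* by 0.30 (adjusted p = 0.049). Both saline calls were lost when WT saline replicates 2 and 3 were averaged (adjusted p = 0.082 and 0.17). *Hsp90ab1*, the constitutive twin of *Hsp90aa1*, was not called, with -0.63 in WT (adjusted p = 0.051) and -0.23 in KO livers (adjusted p = 0.19).

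Other small heat shock proteins (4 tested of 7 measured) had 1 higher and 2 lower in WT and 1 higher and 1 lower in KO livers. *Hspb8*, a small heat shock protein that *Bag3* binds, rose from 139 to 156 TPM to 225 to 464 TPM in WT livers (WT 1.11, KO 1.60). *Hspb6* fell in both genotypes (WT -0.86, KO -0.90), and *Hspb11* fell in WT livers (-0.71) with -0.39 in KO livers (adjusted p = 0.16). Other BAG proteins (5 tested) had 1 higher and 2 lower in WT and 2 higher and 3 lower in KO livers. *Bag2*, which restrains the ubiquitin ligase of HSP70, rose (WT 1.13, KO 1.81), while *Bag4* (WT -1.18, KO -1.24) and *Bag1* (WT -0.60, KO -0.53) fell. Under ConA *Bag2* stood at 7.40 to 8.55 TPM in KO and 3.34 to 5.64 TPM in WT livers. This difference of 0.67 was not called (adjusted p = 0.097), and 10.5% of all genes tested had groups that did not overlap.

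Mitochondrial chaperones and proteases (14 tested) had 0 higher and 7 lower in WT, and 5 higher and 4 lower in KO livers. The share called was near that of all genes tested, of which 53.0% were called in WT and 64.6% in KO livers. In WT livers 22.0% of all genes tested were higher and 31.0% lower. Of the 7 lower genes, *Grpel1* (adjusted p = 0.045) and *Htra2* (adjusted p = 0.048) were close to the threshold. Whether the direction of the list differed from that of all genes was not tested. *Hspa9*, the mitochondrial HSP70, had -0.14 in WT livers (adjusted p = 0.66) and rose by 0.95 in KO livers (adjusted p = 0.00044). In KO against WT livers it had -0.56 in saline (adjusted p = 0.071) and 0.53 under ConA (adjusted p = 0.25), neither called. Its interaction of 1.10 was not called (adjusted p = 0.061). It was called in 3 of 14 fits with 1 library left out, and in 0 of 8 other settings. The 3 were without KO saline replicate 3 (1.31), WT ConA replicate 2 (1.24) or WT ConA replicate 3 (0.85). *Hscb*, the partner of *Hspa9* in iron-sulphur cluster assembly, fell (WT -1.20, KO -1.65). *Grpel2*, a nucleotide exchange factor of *Hspa9*, fell in WT livers (-0.69) with 0.19 in KO livers (adjusted p = 0.37). The WT call was lost when WT saline replicates 2 and 3 were averaged (adjusted p = 0.057). Between KO and WT saline livers *Grpel2* had -0.39 (adjusted p = 0.051). The cytosolic folding chamber TRiC and its feeder prefoldin (14 tested) had 3 higher and 5 lower in WT and 3 higher and 4 lower in KO livers. The subunits did not go one way: *Cct3* rose (WT 0.66, KO 0.74) and *Pfdn1* fell (WT -0.68, KO -0.99). *Cct4* fell in WT livers (-0.65) with 0.09 in KO livers (adjusted p = 0.56), and *Pfdn4* rose in WT livers (0.54) with 0.10 in KO livers (adjusted p = 0.58). Both already differed between KO and WT saline livers, *Cct4* by -0.45 (adjusted p = 0.039) and *Pfdn4* by 0.57 (adjusted p = 0.021). These saline calls were lost when WT saline replicates 2 and 3 were averaged (adjusted p = 0.15 and 0.089). Their calls after ConA in WT livers were then lost as well (adjusted p = 0.096 and 0.052). Under ConA neither gene was called between the genotypes.

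Other heat shock induced genes (9 tested) had 5 higher and 2 lower in WT and 6 higher and 3 lower in KO livers. *Serpinh1*, the collagen chaperone HSP47, rose in WT (1.46) and, with overlapping groups, in KO livers (0.55, adjusted p = 0.045). The KO call was lost in 7 alternatives, with 0.35 (adjusted p = 0.21) without KO saline replicate 2. *Serpinh1* was already higher in KO than in WT saline livers (1.73, adjusted p = 0.020), a call lost when WT saline replicates 2 and 3 were averaged (adjusted p = 0.091). The polyubiquitin gene *Ubb* rose in both genotypes (WT 0.76, KO 0.65). *Gabarapl1*, an autophagy gene, fell from 338 to 357 TPM to 67.1 to 112 TPM in WT livers (WT -1.96, KO -0.93). It was lower in KO than in WT saline livers (-0.66, adjusted p = 0.027), and its interaction of 1.04 was called (adjusted p = 0.033). Both calls were lost when WT saline replicates 2 and 3 were averaged (adjusted p = 0.11 and 0.10), and the interaction was called in 14 of 22 alternatives. *Dedd2* fell (WT -0.57, KO -0.59), and its WT call was lost with these replicates averaged (adjusted p = 0.064).

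**Figure D4:**
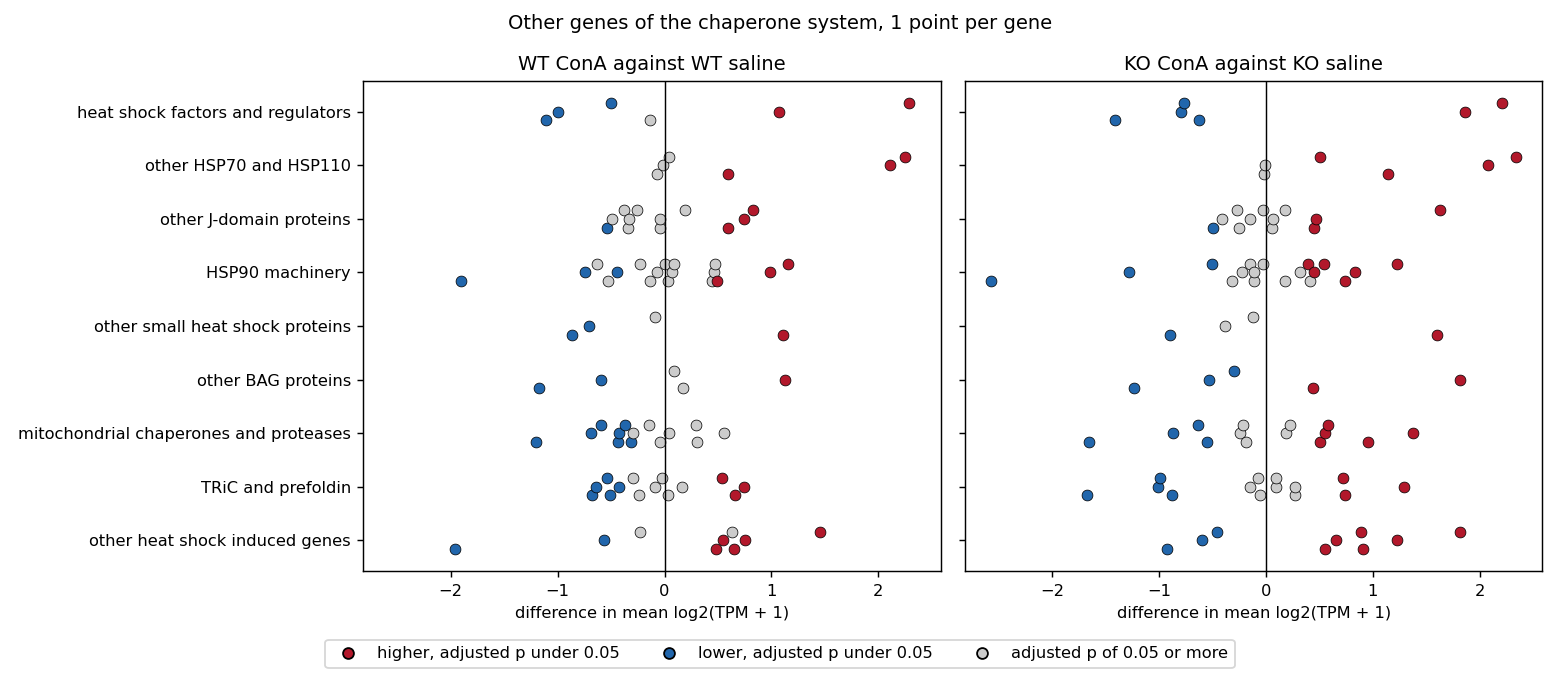
Difference in mean log2(TPM + 1) between ConA and saline livers (horizontal axis) for the 88 tested genes of 9 chaperone lists, 1 point per gene, in WT (left) and KO (right) livers; red is called higher, blue called lower and grey not called. Most lists hold genes on both sides, and in WT livers the mitochondrial list holds blue points (7) and no red ones. The share called in the mitochondrial list is near that of all genes tested in both genotypes.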

How the data were processed

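Total liver RNA of 14 mice was sequenced on a BGISEQ-500. The deposited values are TPM with 2 decimals, made by the authors from 50-base single-end reads. Their processing notes name Bowtie2, RSEM 1.3.1 and GRCm38.p6, while the methods of the study name STAR and HTSeq, and which of these gave the TPM is not settled by the sources used here. RSEM divides reads that match several genes between them, and HTSeq leaves them out. The annotation and read numbers are not given in the sources used here.

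From there, log2(TPM + 1) was compared in R 4.3.3 with limma 3.58.1 (two-sided moderated test with a mean-variance trend). Genes entered if the number of libraries with a TPM of at least 1 reached the size of the smaller group, and p-values were adjusted by Benjamini-Hochberg over all genes tested. Only the 2 groups compared were in a fit, except for the interaction, which used all 14 libraries. Groups and replicate numbers came from the sample labels. On simulated data, 86% to 95.5% of 200 changed genes were recovered, with 9 to 15 false calls. Noise was drawn separately for each gene and library, with the same spread in every group. The close pair of WT saline replicates and the libraries that stood apart were thus not modelled. The false calls therefore do not measure how many false calls the real data hold. The planted changes were larger than any chaperone difference between the genotypes and lay in genes well above 0 TPM. Recovery of smaller changes, or of genes near 0, was not tested. The chaperones and the 9 lists were chosen with earlier results of these data known. Named outside the 10 were *Hsf1*, *Hsp90ab1*, *Hspa9*, *Hspa4*, *Dnaja1* and *Ythdf1*, up to 2 called genes a list with the largest rise and 2 with the largest fall whose groups did not overlap in WT ConA against WT saline (KO ConA against WT ConA gave none), and the 5 likest genes by correlation. Replicate numbers were not taken to pair mice, because deviations of same-numbered libraries did not correlate above 0.1 in every pair. Promoters came from RefSeq (GRCm38.p6) and transcripts from GENCODE vM21. Other settings tried were no filter or one at a TPM of 5, a pseudocount of 0.1, rescaling by median ratios, all 14 libraries in 1 fit, robust eBayes, a replicate block, each library left out, WT saline replicates 2 and 3 averaged, and *Hspa1a* and *Hspa1b* summed.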

Additional observations from a re-analysis of the deposited data

Results flagged for a closer look

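*Bag3* in KO ConA replicate 4 stood at 41.78 TPM, while the other 3 KO ConA livers lay between 34.76 and 35.92 TPM. The gap to the nearest of them was 0.835 of the whole range of the group, above the critical value of Dixon's test for 4 values. It was 1 of 20 groups of 4 tested (10 chaperones in WT ConA and in KO ConA livers), and chance alone gives about 1 in 20. Without that library *Bag3* was still called higher in KO ConA than in KO saline livers.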

How the results depend on the processing

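The count of chaperones called kept within 1.5 times its value in both ConA comparisons, at 3 to 5 in WT and 4 to 7 in KO livers, and was 0 between the genotypes under ConA and for the interaction in every alternative. In KO against WT saline livers it was 2 with the replicate block (*Hspb1* and *Hspd1*) and 0 to 1 with single libraries left out, and the cause was not tested. *Hspa1b*, *Bag3* and *Hsp90aa1* were called after ConA in both genotypes in every alternative that tested them singly, and *Hspa1a* in every alternative but the filter at TPM of 5 in WT livers, which did not test it. In KO livers the calls of *Hspb1* and *Hspd1* were lost with no filter (adjusted p = 0.061 and 0.053) and with all 14 libraries in 1 fit (0.11 and 0.088).

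In comparisons of ConA with saline livers, the replicate block leaves out the ConA replicates numbered 4, which have no saline partner. Between the genotypes under ConA and in the interaction, the block keeps them. With it *Hsph1* was called higher in WT (0.9985) and KO (0.69) livers and *Hspd1* was not called in KO livers (0.42), and *Hspa8* in WT livers turned to 0.0026. Same-numbered deviations correlated by -0.19 to 0.41, and not every library went best with its own number. Rescaling by median ratios turned *Hspa4* in WT livers to 0.081 and the interaction terms of *Hspa8*, *Dnajb1* and *Bag3* to -0.042, -0.065 and -0.068. Leaving out single libraries moved values near 0 across it, and the cause was not tested. After ConA in WT livers the ranges were -0.45 to 0.0026 for *Hspa8*, -0.021 to 0.38 for *Dnajb1*, -0.28 to 0.098 for *Hspa9* and -0.092 to 0.13 for *Hspa4*, and in KO livers -0.23 to 0.0045 for *Hspa8*. Between the genotypes under ConA they were -0.25 to 0.20 for *Hspa8*, -0.075 to 0.33 for *Dnajb1* and -0.16 to 0.47 for *Hsph1*, and in saline -0.14 to 0.015 for *Hspa1b*, -0.052 to 0.37 for *Hsph1* and -0.0088 to 0.22 for *Bag3*. For the interaction they were -0.14 to 0.31 for *Hspa8*, -0.14 to 0.27 for *Dnajb1*, -0.33 to 0.30 for *Hsph1*, -0.067 to 0.16 for *Bag3* and -0.37 to 0.13 for *Hspb1*. Over the 10 chaperones, 760 of the 814 values in the alternatives kept their sign and their side of the threshold. Calls of *Cct4*, *Dedd2*, *Grpel2*, *Pfdn4* and *Dnajb12* in WT livers and of *Dnajb5*, *Dnajb12*, *Unc45a* and *Serpinh1* in KO livers were lost under some alternative. *Hsp90ab1* was called lower in WT livers with all 14 libraries in 1 fit or without WT ConA replicate 2, as was *Dnaja1* without that library. Read numbers are unknown, so what depth limits cannot be given, and the values of *Hspa1a* near 0 in saline livers are the least certain.

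Counting WT saline replicates 2 and 3 as 1 mouse lowered the genes called from 5704 to 4620 in WT ConA against WT saline, from 2009 to 49 in KO against WT saline and from 541 to 28 for the interaction. For all genes, the replicate block called 140 in KO against WT ConA instead of 45, and rescaling by median ratios called 25.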
